A study of Mus musculus with 6 samples.

Results

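Genes that tell T cells, natural killer cells and macrophages to attack or to hold back were read in 2 mouse cell lines, 2H-11 and SVEC4-10. The set was given by name and held 10 genes, namely Cd274, Pdcd1lg2, Cd80, Cd86, Icosl, Cd276, Pvr, Nectin2, Cd47 and Cd200. All 10 were found by symbol among the 34724 genes of the deposited table. Both lines were made from adult C3H/HeJ axillary lymph node tissue and carry SV40 as the transforming agent. By its labels 2H-11 is a tumor endothelial line and SVEC4-10 a normal one, and the comparison asks which transcripts differ between a line called tumor and a line called normal. With 1 line for each label, tumor or normal status and whatever else sets the lines apart cannot be told apart. There were 3 nanopore direct RNA libraries of each line, in which native polyadenylated RNA molecules are read without copying.

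Checkpoint ligands are membrane proteins that bind receptors on immune cells. PD-L1 (Cd274) and PD-L2 (Pdcd1lg2) bind the inhibitory receptor PD-1, and CD80 and CD86 bind both the activating receptor CD28 and the inhibitory receptor CTLA-4. PVR and nectin-2 are shared by the activating receptor DNAM-1 and the inhibitory receptor TIGIT, while CD47 binds SIRP-alpha on macrophages and blocks engulfment. Vessel-lining cells can display several of these proteins and so affect the leukocytes that pass through a vessel wall.

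The library totals ran from 3628400 to 16798666 counts, and SVEC4-10 replicate 3 held 68.0% of the counts of its line. Levels are given as CPM, the count of a gene scaled by its library total, with the SD over the libraries of 1 line (n = 3). The labels do not state whether replicates are separate cultures. The p-values therefore measure the spread between these libraries only, and that spread may be technical. The endothelial label was set against 12 defining transcripts. Of these, 6 were uncounted throughout, Erg, Cldn5, Tie1 and Vwf among them, and 10 were under 1 CPM in all 6 libraries. Only Eng and Flt1 reached 1 CPM in any library. Eng averaged 9.61 ± 2.60 CPM in 2H-11 libraries, against 2.45 ± 0.507 CPM in SVEC4-10 (called higher, adjusted p = 0.000343, edgeR). It reached the count filter for testing (2.07 CPM in at least 3 libraries) only with the help of the 2H-11 libraries. Flt1 averaged 1.68 ± 0.714 CPM in 2H-11 libraries and 1.25 ± 0.740 CPM in SVEC4-10, and was too low to be tested. The summed level of the 12 was 9.26 to 15.1 CPM in 2H-11 libraries and 3.27 to 5.18 CPM in SVEC4-10, so the lines are called by their names here. Of 11 leukocyte markers, 4 had no count in any library (Cd3e, Itgam, Itgax and Adgre1), and Ptprc had 0 counts in 2H-11 and 2 counts in SVEC4-10. Their summed level was 4.47 to 7.38 CPM in 2H-11 libraries and 3.63 to 9.09 CPM in SVEC4-10. Cd68, a lysosomal protein of macrophages and other cells, gave the largest part. It stood at 3.46 ± 0.606 CPM in 2H-11 libraries and 3.87 ± 0.958 CPM in SVEC4-10 (adjusted p = 0.730, edgeR). Lyz2 averaged 1.51 ± 0.939 CPM in 2H-11 libraries and 1.07 ± 1.70 CPM in SVEC4-10. Csf1r averaged 0.701 ± 0.687 CPM in 2H-11 libraries and 0.0919 ± 0.159 CPM in SVEC4-10, with overlap between the lines. Of 8 fibroblast and mural markers, 7 were tested. Among these, 5 were called higher and 1 lower in 2H-11, against 20.1% and 16.2% of all genes tested. Of those higher, Pdgfra, Pdgfrb and Cspg4 reached the count filter only with the help of the 2H-11 libraries. The summed level of all 8 was 1544 to 2023 CPM in 2H-11 libraries and 1660 to 1924 CPM in SVEC4-10. Single markers differed more, such as Pdgfrb with 417 reads in 2H-11 and 0 in SVEC4-10, and Dcn with 207 and 6962. These examples were picked after their values were seen. Of 5 mesothelial markers 4 were tested, and all 4 were lower in 2H-11, against 16.2% of all genes tested. Upk1b, Upk3b and Wt1 reached the count filter only with the help of the SVEC4-10 libraries. The sums over all 5 were 41.5 to 45.1 CPM in 2H-11 libraries and 3162 to 4066 CPM in SVEC4-10. Of 5 lymphatic markers 3 had no count. The lymphatic sums were 159 to 219 CPM in 2H-11 libraries and 207 to 213 CPM in those of SVEC4-10, nearly all from Pdpn, while Flt4 summed to 8 reads in 2H-11 and 63 in SVEC4-10. The part of these differences in the results below was not tested. In bulk RNA, fewer cells that make a transcript and less transcript per cell cannot be told apart.

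The 10 genes did not move as a group. Cd276, Cd80 and Cd200 were the transcripts seen mainly or only in 2H-11, Nectin2 and Cd47 were lower in 2H-11, Pvr did not pass the test, and the PD-1 ligands had few or no reads in either line. A count was found for 8 of the 10 genes, and 5 reached the count filter, which asks for about 10 reads (2.07 CPM here) in at least 3 libraries. Among those 5 the edgeR quasi-likelihood test called 2 higher and 2 lower in 2H-11 at a Benjamini-Hochberg adjusted p under 0.05, against 36.2% of all 13187 genes tested (20.1% higher and 16.2% lower). In 4 of the 5 the libraries of the lines did not overlap in CPM, against 46.8% of genes tested. The median log2 fold change was 0.31 over the 5 genes and 0.00 over all genes tested. Because a gene can pass the filter through the line where it is high, these counts describe the 5 genes and stand for no rule about the other 5.

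**Figure D1:**
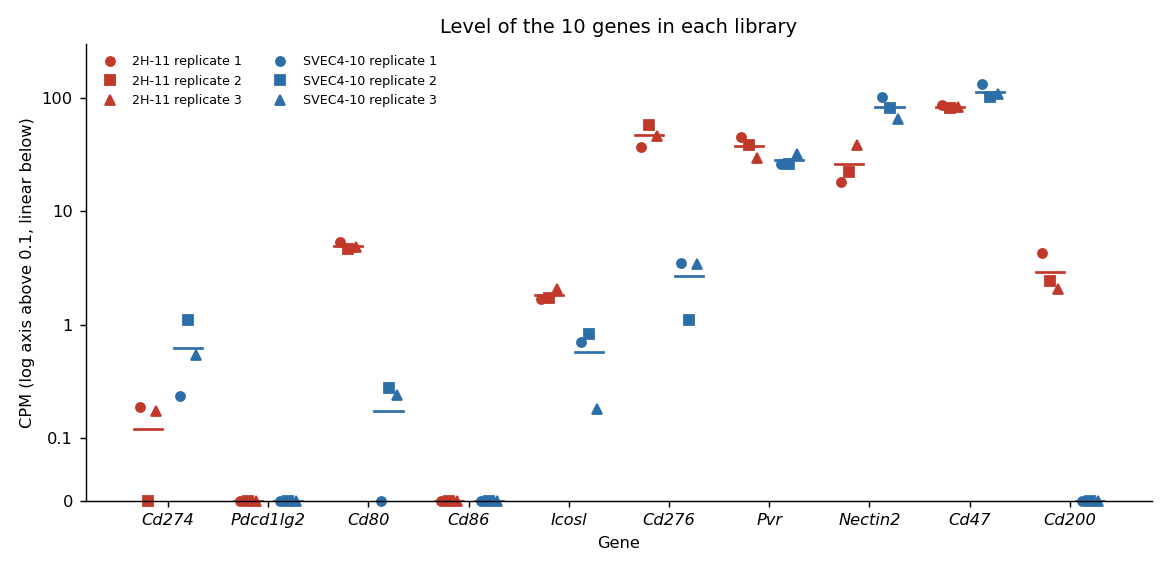
Level of each of the 10 genes in CPM (log axis above 0.1, linear below) in the 3 libraries of 2H-11 (red, left) and of SVEC4-10 (blue, right), with a symbol per replicate and a line at the mean. Cd276, Cd80, Cd200 and Icosl lie higher in 2H-11, Nectin2 and Cd47 lie lower, and Pdcd1lg2 and Cd86 lie at 0 in all 6 libraries.

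The sequences just before the start of 6 of these genes are shown, for the 3 that were highest in 2H-11 relative to SVEC4-10, the 2 that were lower and the PD-L1 gene. They are RefSeq promoter windows of 250 bases before the start site in GRCm38.p6, read 5′ to 3′ on the strand of the gene, and the RefSeq start of Cd276, Cd80, Nectin2 and Cd47 lies inside the span that GENCODE M21 gives the gene. In them capitals mark a GC box (GGGCGG on either strand). They stand for Cd276 (chr9:58555034-58555283, minus strand), Cd80 (chr16:38458683-38458932, plus strand), Cd200 (chr16:45409054-45409303, minus strand), Nectin2 (chr7:19749574-19749823, minus strand), Cd47 (chr16:49855404-49855653, plus strand) and Cd274 (chr19:29367188-29367437, plus strand).
Cd276: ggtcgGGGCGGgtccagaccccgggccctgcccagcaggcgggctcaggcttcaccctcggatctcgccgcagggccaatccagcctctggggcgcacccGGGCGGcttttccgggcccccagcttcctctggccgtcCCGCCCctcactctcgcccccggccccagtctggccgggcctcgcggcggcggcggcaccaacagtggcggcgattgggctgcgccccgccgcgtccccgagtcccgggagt
Cd80: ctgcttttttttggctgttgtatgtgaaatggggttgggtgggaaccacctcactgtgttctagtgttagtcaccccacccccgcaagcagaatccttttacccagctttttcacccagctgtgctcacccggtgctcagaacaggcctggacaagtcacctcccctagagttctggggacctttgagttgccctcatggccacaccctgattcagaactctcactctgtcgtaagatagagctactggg
Cd200: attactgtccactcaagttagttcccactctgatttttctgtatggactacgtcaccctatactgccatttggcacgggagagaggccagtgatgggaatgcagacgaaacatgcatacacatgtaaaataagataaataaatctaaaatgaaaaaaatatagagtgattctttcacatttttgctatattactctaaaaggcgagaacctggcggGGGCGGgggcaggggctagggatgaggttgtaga
Nectin2: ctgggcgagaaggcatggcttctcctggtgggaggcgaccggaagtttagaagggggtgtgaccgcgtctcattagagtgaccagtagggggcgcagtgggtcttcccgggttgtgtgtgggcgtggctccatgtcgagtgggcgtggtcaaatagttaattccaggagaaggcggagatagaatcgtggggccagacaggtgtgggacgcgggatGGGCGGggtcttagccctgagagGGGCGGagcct
Cd47: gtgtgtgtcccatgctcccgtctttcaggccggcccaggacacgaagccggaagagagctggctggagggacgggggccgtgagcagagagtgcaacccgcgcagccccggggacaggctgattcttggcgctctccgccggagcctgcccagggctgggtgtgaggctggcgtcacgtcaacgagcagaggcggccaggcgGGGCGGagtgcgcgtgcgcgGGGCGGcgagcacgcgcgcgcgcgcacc
Cd274: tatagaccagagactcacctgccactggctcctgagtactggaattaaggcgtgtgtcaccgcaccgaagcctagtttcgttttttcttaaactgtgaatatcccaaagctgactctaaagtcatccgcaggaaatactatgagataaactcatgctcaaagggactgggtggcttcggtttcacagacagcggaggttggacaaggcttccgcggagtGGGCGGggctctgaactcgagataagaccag
The window of Cd276 was 77.6% G and C with 3 GC boxes, and that of Cd47 was 73.2% with 2. The window of Nectin2 was 62.0% with 2 boxes, that of Cd274 50.4% with 1 and that of Cd200 42.4% with 1, while that of Cd80 was 52.8% with none. The median over the 32851 windows of the RefSeq table was 52.4%. Of the 8 genes with a window, 6 held a GC box, against 32.7% of all windows, and the windows of Pdcd1lg2 and Cd80 held none. No window of the 8 held the STAT site GAS (TTCNNNGAA), the interferon response core (GAAA, any 2 bases, GAAA) or a TATA box (TATAAA), each searched on both strands, against 7.02%, 2.98% and 12.4% of all windows. No window was given for Pvr or Cd86.

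Transcripts of the PD-1 ligands were almost uncounted. Cd274 (ENSMUSG00000016496, chromosome 19, 29367455 to 29388095 in GRCm38) had 1, 0 and 1 counts in 2H-11 replicates 1 to 3 and 1, 4 and 9 counts in SVEC4-10 replicates 1 to 3. In CPM these were 0.186, 0 and 0.172 in 2H-11, against 0.234, 1.10 and 0.536 in SVEC4-10. The groups did not overlap, but replicate 1 of each line rested on a single read. The ratio of summed counts, each over the total of its line, was 0.231 (95% exact counting interval 0.0254 to 1.00), and the exact permutation test over libraries gave p = 0.1, the smallest that 3 against 3 allows (two-sided). In a fit with no count filter Cd274 had an adjusted p of 0.137. Pdcd1lg2 (ENSMUSG00000016498, chromosome 19, 29410919 to 29471161) had no count in any library. With the limit of a count of 0 set at 3 counts over a line, Pdcd1lg2 could have reached 0.196 CPM in 2H-11 libraries and 0.121 CPM in SVEC4-10, which covers counting error only. The genes are neighbours, 22823 bases apart with no coding gene between them.

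PD-L1 transcription is known to follow interferon-gamma through Janus kinases and the factor IRF1. Of 10 genes read on that route, 8 were tested, of which 1 was higher and 2 were lower in 2H-11, where 36.2% of all genes tested were called. The median log2 fold change of the 8 was -0.15, against 0.00 over all genes tested. Irf9, the DNA-binding part of the complex that type I interferon activates, stood at 7.93 ± 0.504 CPM in 2H-11 libraries, against 85.5 ± 10.9 CPM in SVEC4-10 (log2 fold change of -3.52, SE 0.22, adjusted p = 4.57e-10, edgeR). Irf1, the factor that acts on the Cd274 promoter, had 39.1 ± 6.80 CPM in 2H-11 libraries and 39.5 ± 2.84 CPM in SVEC4-10, and did not pass the test (adjusted p = 0.717). The receptor chains Ifngr1 and Ifngr2 did not pass it either (adjusted p = 0.535 and 0.938). These 3 genes and Jak2 were named after their values were seen. Jak1 averaged 76.6 ± 19.0 CPM in 2H-11 libraries, against 36.6 ± 13.6 CPM in SVEC4-10 (called higher, adjusted p = 0.00609). Jak2 averaged 7.68 ± 2.01 CPM in 2H-11 libraries, against 13.8 ± 0.729 CPM in SVEC4-10 (called lower, adjusted p = 0.0126, and 0.0854 without 2H-11 replicate 2).

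Cd80 was the classical B7 transcript that separated the lines, while Cd86 was not counted. Cd80 (ENSMUSG00000075122, chromosome 16, 38455561 to 38496335) is best known from dendritic cells, B cells and macrophages. It had 5.40, 4.63 and 4.81 CPM in 2H-11 replicates 1 to 3, against 0, 0.276 and 0.238 CPM in SVEC4-10 replicates 1 to 3. The 3 libraries of 2H-11 lay close together, and each stood far above the highest of SVEC4-10, whose 3 libraries summed to 5 reads. Cd80 was 21.5-fold higher in 2H-11 (log2 fold change of 4.43, SE 0.54, adjusted p = 2.93e-06, edgeR), and it reached the count filter through 2H-11 alone. Of the 11 leukocyte markers, 6 had no count in 2H-11 (Ptprc, Cd3e, Itgam, Itgax, Adgre1 and H2-Aa). The other 5 were counted there, with 54 reads of Cd68, 22 of Lyz2, 11 of Csf1r, 5 of Cd74 and 2 of H2-Ab1. In SVEC4-10 these genes had 86, 14, 1, 6 and 0 reads. Csf1r missed the count filter, and its CPM overlapped between the lines. Its ratio of summed counts, each over the total of its line, was 17.8 (exact counting interval 2.58 to 764). The edgeR fit with no filter gave Csf1r an adjusted p of 0.0291. The part of these markers in the level of Cd80 was not tested. Cd86 (ENSMUSG00000022901, chromosome 16, 36603869 to 36666081), the usual companion of CD80 on antigen-presenting cells, had no count in any library and so the same limits as Pdcd1lg2.

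Of the remaining B7 genes, Cd276 was called higher in 2H-11, and Icosl was too low for the count filter. Icosl (ENSMUSG00000000732, chromosome 10, 78069302 to 78083913), the ligand of the T-cell costimulator ICOS, had 1.67, 1.71 and 2.06 CPM in 2H-11 libraries, against 0.701, 0.827 and 0.179 CPM in SVEC4-10. The libraries of the lines did not overlap, but the gene missed the count filter. Its summed counts of 28 in 2H-11 and 9 in SVEC4-10 gave a ratio of 5.02 (95% exact counting interval 2.30 to 12.1). SVEC4-10 replicate 3 weighed on that ratio, which was 2.41 (0.979 to 7.12) without it. The fit with no filter called Icosl higher (log2 fold change 1.91, adjusted p = 0.0212), in which 26.5% of 26293 genes were called. In the authors' deposited table Icosl did not reach 0.05 (DESeq2 log2 fold change 1.48, adjusted p = 0.0844, positive where 2H-11 is higher as read from the CPM).

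Cd276 (ENSMUSG00000035914, chromosome 9, 58524298 to 58555437) encodes B7-H3, a B7 protein of tumor cells and tumor vessels whose receptor is not settled. It had 36.7, 57.2 and 46.5 CPM in 2H-11 replicates 1 to 3, against 3.51, 1.10 and 3.45 CPM in SVEC4-10 replicates 1 to 3. Every library of 2H-11 lay more than 10 times above the highest of SVEC4-10, and SVEC4-10 replicate 2 was the lowest, with 4 reads. The log2 fold change was 3.90 (SE 0.31, adjusted p = 1.25e-08, edgeR), and it lay between 3.62 and 4.19 in the 17 alternative fits. Among genes tested, 3.99% had a fitted increase of 8-fold or more. Cd276 reached the count filter only with the help of the 2H-11 libraries, so that share is a description only. Taken within a library, where the scaling of libraries cancels, there were 41.9, 69.7 and 56.1 counts of Cd276 per 100 counts of Cd47 in 2H-11, against 2.63, 1.09 and 3.20 in SVEC4-10. The ratio is not scaled by transcript length and serves to compare the lines, not the genes. Cd47 was itself called lower in 2H-11, which raises the ratio there.

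Of the 2 ligands that TIGIT and DNAM-1 share, Nectin2 was lower in 2H-11 and Pvr was not called. Nectin2 (ENSMUSG00000062300, chromosome 7, 19716644 to 19750483), which also joins neighbouring cells at adherens junctions, had 18.2, 22.2 and 38.8 CPM in 2H-11 libraries, against 101.9, 81.3 and 65.4 CPM in SVEC4-10. The groups did not overlap, but 2H-11 replicate 3 stood well above the other libraries of its line. Nectin2 was 3.29-fold lower in 2H-11 (log2 fold change of -1.72, SE 0.26, adjusted p = 4.37e-05, edgeR), and the log2 fold change was -2.15 without that library. Pvr (ENSMUSG00000040511, chromosome 7, 19903578 to 19921160), the poliovirus receptor homologue, had 45.0, 38.2 and 29.5 CPM in 2H-11 libraries, against 26.4, 25.9 and 32.1 CPM in SVEC4-10. Here 2H-11 replicate 3 was the lowest of its line and fell below SVEC4-10 replicate 3, so the groups overlapped. The fold change of Pvr was 1.24 (95% interval 0.926 to 1.65, adjusted p = 0.285). The test did not call Pvr in any of the 17 alternative fits.

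The ratio of Nectin2 to Pvr within a library, which the scaling of libraries does not touch, did not overlap between the lines. There were 40.5, 58.0 and 131 counts of Nectin2 per 100 counts of Pvr in 2H-11, against 386, 314 and 204 in SVEC4-10. The mean was 76.6 ± 48.2 in 2H-11 and 301 ± 91.7 in SVEC4-10 (SD, n = 3 each), with no overlap, and the exact permutation test gave p = 0.1, the smallest that 3 against 3 allows. Nectin2 per 100 counts of Cd47 was 31.5 ± 13.6 in 2H-11 and 72.4 ± 10.4 in SVEC4-10, also without overlap (exact permutation p = 0.1). Pvr per 100 counts of Cd47 was 51.5, 46.6 and 35.6 in 2H-11, against 19.8, 25.5 and 29.7 in SVEC4-10, without overlap (exact permutation p = 0.1). Cd47 was itself called lower in 2H-11, which raises ratios to Cd47 there. The CPM of Pvr overlapped between the lines, so this ratio does not show that Pvr itself differs.

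**Figure D2:**
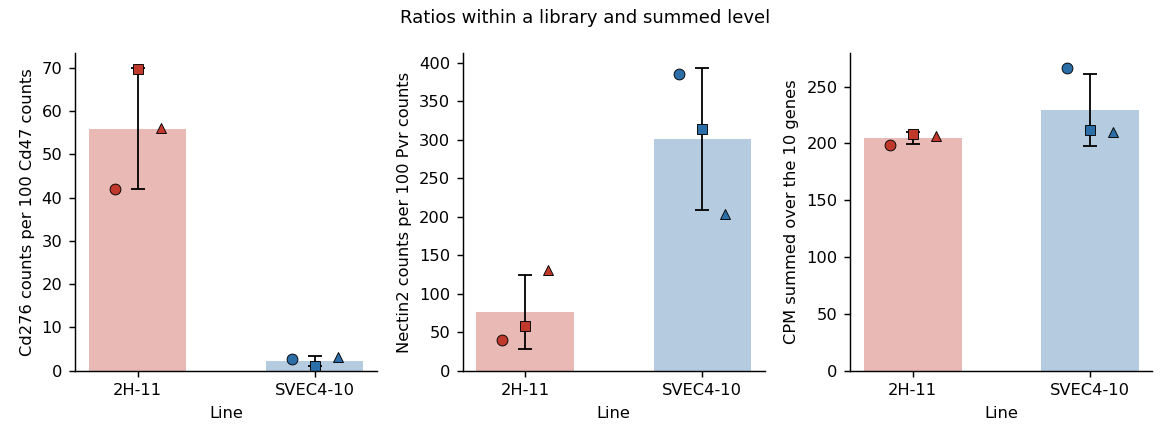
Counts of Cd276 per 100 counts of Cd47 (left), counts of Nectin2 per 100 counts of Pvr (middle) and CPM summed over the 10 genes (right) in 2H-11 and SVEC4-10. Bars are means over 3 libraries, whiskers are the SD and symbols are replicates 1 (circle), 2 (square) and 3 (triangle); the libraries of the lines do not overlap in any panel, and in the right panel SVEC4-10 replicates 2 and 3 lie within 4 CPM of 2H-11 replicate 2.

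Cd47 and Cd200 act on myeloid cells, and they went opposite ways. Cd47 (ENSMUSG00000055447, chromosome 16, 49800533 to 49915010) had 87.4, 82.1 and 82.9 CPM in 2H-11 libraries, against 133, 101.4 and 108 CPM in SVEC4-10. The 2H-11 libraries lay within 6 CPM of each other, and the spread was in SVEC4-10, where replicate 1 was the highest. Cd47 was 1.44-fold lower in 2H-11 (log2 fold change of -0.53, SE 0.17, adjusted p = 0.0221, edgeR), and the authors' deposited table gave a DESeq2 log2 fold change of -0.57 with an adjusted p of 0.00671. That call is the weakest of the 4. It was lost with library sizes alone (adjusted p = 0.0594), on Ensembl identifiers alone (0.0525), without 2H-11 replicate 2 (0.105) and without SVEC4-10 replicate 1 (0.0584), all with the same direction, and a test against a 2-fold change, which called 13.7% of genes, did not call it.

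Cd200 (ENSMUSG00000022661, chromosome 16, 45382135 to 45409053) encodes the ligand of the inhibitory receptor CD200R of macrophages and mast cells, and is known on endothelium and lymphocytes. It had 4.28, 2.44 and 2.06 CPM in 2H-11, from 23, 10 and 12 reads, and no count in the 3 libraries of SVEC4-10. Every 2H-11 library thus lay above every SVEC4-10 library, and 2H-11 replicate 1 held about as many reads as the other two together. Taking 0 counts in SVEC4-10 as at most 3 over the line, and the 2H-11 reads as counted, it was at least 24.1-fold higher in 2H-11, and at least 7.71-fold without SVEC4-10 replicate 3. It missed the count filter because 2H-11 replicate 3 lay just under the 2.07 CPM asked for. In the 8 alternative fits that kept it, Cd200 was called higher each time, with an adjusted p between 1.96e-10 and 0.00109. The authors' deposited table also gave it as higher (DESeq2 adjusted p = 9.07e-07).

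The summed level of the 10 genes was taken in each library. It was 199, 209 and 207 CPM in 2H-11 libraries, against 266, 212 and 209.7 CPM in SVEC4-10. The means were 205 ± 5.14 CPM in 2H-11 libraries, against 229 ± 31.9 CPM in SVEC4-10 (exact permutation p = 0.1, the smallest possible). The shares of single genes in the sum lay farther apart between the lines. Cd276 made up 22.8% ± 4.52 of it in 2H-11 and 1.16% ± 0.579 in SVEC4-10, and Nectin2 made up 12.9% ± 5.17 in 2H-11 and 35.9% ± 4.14 in SVEC4-10 (SD, n = 3 each). Cd47 held 41.1% ± 2.47 in 2H-11 and 49.8% ± 1.81 in SVEC4-10.

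Checkpoint receptors are normally made by immune cells, and most had few or no reads here. Of 12 checkpoint receptors, 5 had no count in any library (Ctla4, Cd226, Cd96, Cd200r1 and Btla), and 10 were under 1 CPM in all 6. The 2 that were tested were higher in 2H-11, against 20.1% of all genes tested, but both reached the count filter only with the help of the 2H-11 libraries. Sirpa, the receptor of CD47, also made by fibroblasts and neurons, had 33.3, 29.0 and 26.9 CPM in 2H-11 libraries, against 3.51, 1.65 and 4.46 CPM in SVEC4-10. Each 2H-11 library lay above all of SVEC4-10 (log2 fold change of 2.98, SE 0.29, adjusted p = 1.96e-07, edgeR). The transcripts of CD47 and its receptor were thus called in opposite directions, with Sirpa higher and Cd47 lower in 2H-11. Havcr2, which encodes TIM-3, had 42 reads in 2H-11, against 2 reads in SVEC4-10, which is a ratio of 33.9 (95% exact counting interval 8.82 to 289, adjusted p = 1.22e-05). Both SVEC4-10 reads were in replicate 3, and without it the gene was at least 7.19-fold higher. Of 12 genes for proteins that process or partner the ligands, 10 were tested and 1 was lower in 2H-11, against 36.2% of all genes tested called in either direction. Their median log2 fold change was -0.10. That gene was Rgmb, a binding partner of PD-L2 and a BMP co-receptor. It stood at 1.86 ± 0.886 CPM in 2H-11 libraries, against 3.98 ± 1.39 CPM in SVEC4-10 (adjusted p = 0.0347, edgeR). Rgmb reached the count filter only with the help of the SVEC4-10 libraries. The libraries of the lines overlapped, and the call was lost in 7 of 16 alternatives, among them DESeq2 (adjusted p = 0.0869) and the fits without 2H-11 replicate 1 (0.0550), 2H-11 replicate 2 (0.170) or SVEC4-10 replicate 3 (0.202). Cmtm6, which keeps PD-L1 at the cell surface, and Qpctl, the enzyme that modifies CD47 for SIRP-alpha binding, did not pass the test (adjusted p = 0.443 and 0.840), and both were picked after their values were seen.

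**Figure D3:**
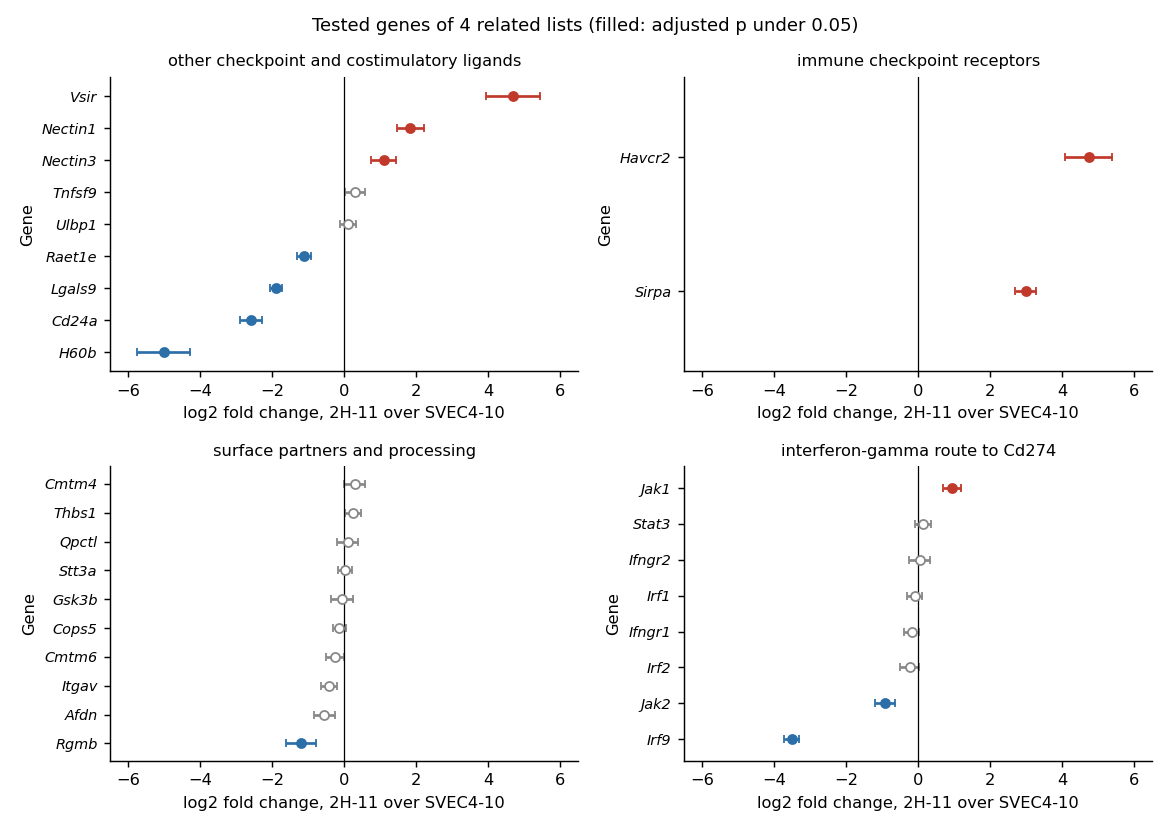
Log2 fold change with SE, 2H-11 over SVEC4-10, of the tested genes in 4 related lists: other ligands (9 genes), receptors (2), partners and processing (10) and the interferon-gamma route (8). Filled points passed an adjusted p of 0.05, red higher and blue lower in 2H-11; both receptors are higher, 9 of 10 partners are open, and Irf9 lies lowest in the interferon-gamma panel.

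Other ligands of immune receptors went both ways. Of 19 listed, 18 were in the table, 9 were tested, and 3 were higher and 4 lower in 2H-11 (20.1% and 16.2% of all genes tested), and their median log2 fold change was 0.10. The 2 with the smallest p were lower. Lgals9, galectin-9, a ligand of TIM-3, stood at 162 ± 29.1 CPM in 2H-11 libraries, against 562 ± 53.3 CPM in SVEC4-10 (log2 fold change of -1.89, SE 0.18, adjusted p = 1.07e-07, edgeR). Cd24a, a glycoprotein whose human form is a ligand of Siglec-10 on macrophages, stood at 4.17 ± 1.64 CPM in 2H-11 libraries, against 23.0 ± 4.10 CPM in SVEC4-10 (log2 fold change of -2.60, SE 0.31, adjusted p = 2.23e-06). The next genes were picked after their values were seen. Nectin1 and Nectin3, relatives of Nectin2 at cell junctions, were higher in 2H-11 where Nectin2 was lower. Nectin1 averaged 5.96 ± 0.654 CPM in 2H-11 libraries, against 1.46 ± 0.346 CPM in SVEC4-10 (adjusted p = 0.000801). It reached the count filter through 2H-11 alone. Nectin3 averaged 9.46 ± 2.25 CPM in 2H-11 libraries, against 3.77 ± 1.71 CPM in SVEC4-10 (adjusted p = 0.0189). The call for Nectin3 was lost without 2H-11 replicate 1 (adjusted p = 0.0516), without 2H-11 replicate 2 (0.0666), without SVEC4-10 replicate 1 (0.0865) and without SVEC4-10 replicate 2 (0.0627). Vsir, the B7 relative VISTA, had 43 reads in 2H-11, against 2 reads in SVEC4-10, which is a ratio of 34.7 (95% exact counting interval 9.04 to 296, adjusted p = 7.31e-05). Vsir reached the count filter through 2H-11 alone, and both its SVEC4-10 reads were in replicate 1. Without that library Vsir was at least 19.5-fold higher, and without SVEC4-10 replicate 3 the ratio was 11.1 (2.89 to 94.6).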

How the data were processed

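Direct RNA libraries of 2H-11 and SVEC4-10 (3 each) were made from total RNA with the Oxford Nanopore kit SQK-RNA002, per the labels' protocols. Builds mm10 and GRCm38 are named in the submitters' processing notes, whereas for the aligner, counter, annotation and use of strand nothing is stated in the sources used here. As deposited by the authors, the table holds raw read counts per gene and the same counts as CPM. Its other columns, by the authors, give their own DESeq2 comparison as log2 fold changes with adjusted p-values, per the file headers. Unnamed lines (13) stayed out of totals and tests. No column belonged to another series.

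Counts were fitted over all genes with edgeR 4.0.16 in R 4.3.3 (filterByExpr with minimum count 10 and total 15, TMM, quasi-likelihood test with line as the only term, Benjamini-Hochberg threshold 0.05). SE is the fold change on the log2 scale over the root of F. Alternatives used DESeq2 1.42.0, limma 3.58.1, other scalings, filters and gene sets, thinning, and leaving out each library. Exact intervals (95%) and limits cover counting error only. A fold of "at least" a value sets 3 counts in the line at 0 and takes the other line as counted, so it is not the end of an exact interval. Coordinates came from GENCODE M21 on GRCm38. Of the 10 genes, 5 overlap annotated genes on the opposite strand, namely Cd274, Pdcd1lg2, Cd276, Pvr and Nectin2, and with strand use not stated, reads of such partners cannot be told apart. Reads assigned to the authors' 12688 ONT identifiers, which have no coordinates, could include reads of these loci.

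The members and lists were chosen with earlier results of these data known. All 10 members are named. From each related list the 2 genes past the threshold with the smallest p are named, or the most abundant where none passed, and others are marked as picked after their values were seen. The results of 2 list members are not reported here, and their lists are counted without them. Protein identity between members was planned but not computed, and is not reported here. Figures used matplotlib 3.10.9.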

Additional observations from a re-analysis of the deposited data

How the results depend on the processing

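Over the 17 alternatives, Cd276 and Nectin2 kept their direction and their call in all fits, and Cd80 in the 16 that kept it (20 counts in 3 libraries removed it). Cd47 kept its direction throughout and was called in 12. Leaving out single libraries gave 4 to 5 called members and 4134 to 5149 called genes, and 2 to 5 called genes in the partner, receptor and leukocyte lists, against 3 in the reported fit. Those lists gave 6 calls with no filter, 1 with 20 counts in 3 libraries and 1 after thinning to the smallest library, where fewer genes were tested. A test against a 2-fold change gave 1805 called genes, against 4778 as reported. Library size alone moved the median of all genes to 0.10 (log2) and the share of calls that were higher to 62.8%, against 55.4%. The numbers of the replicates did not pair the libraries: the deviations of same-numbered libraries correlated at -0.018, 0.051 and -0.0026. With a replicate block 4461 genes and 4 members were called, and the adjusted p of Cd47 was 0.0431. Depth limits Cd274, Icosl and Cd200, which summed to 14, 28 and 45 reads in their higher line.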

Other observations

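The genes lie in groups on the genome, and the coding genes between them were looked at after the values of the 10 genes were seen. Nectin2 and Pvr are 153094 bases apart on chromosome 7 with 6 coding genes between them. Of these only Bcam, a laminin receptor of the Lutheran blood group, reached the count filter, and it passed the test as higher, with 4.16 ± 0.896 CPM in 2H-11 libraries, against 1.20 ± 0.659 CPM in SVEC4-10 (log2 fold change of 1.68, SE 0.42, adjusted p = 0.00418, edgeR). Bcam reached the count filter through 2H-11 alone. Nectin2, next to Bcam, was lower. Between Cd86 and Cd80, 25 coding genes fill 1789479 bases of chromosome 16. Among the 13 tested, edgeR called 3 higher and 0 lower in 2H-11, against 20.1% and 16.2% of all genes tested. All 3 are named here. Pla1a and Adprh are the last coding genes before Cd80. Pla1a, a phosphatidylserine phospholipase (chromosome 16, 38396117 to 38433145), had 157 counts in 2H-11 and 1 in SVEC4-10 (adjusted p = 1.53e-08). Pla1a reached the count filter through 2H-11 alone. Adprh, an ADP-ribosylarginine hydrolase (chromosome 16, 38444030 to 38452703), averaged 94.5 ± 17.5 CPM in 2H-11 libraries, against 32.7 ± 7.19 CPM in SVEC4-10 (log2 fold change of 1.44, SE 0.20, adjusted p = 1.65e-05). Fstl1, a secreted glycoprotein farther off, averaged 484 ± 94.8 CPM in 2H-11 libraries, against 207 ± 5.96 CPM in SVEC4-10 (log2 fold change of 1.13, SE 0.17, adjusted p = 2.93e-05). Between Cd200 and Cd47, 25 coding genes fill 4391479 bases of chromosome 16. Of these 8 were tested, with 2 higher and 1 lower in 2H-11, against 20.1% and 16.2% of all genes tested. Those higher were Nectin3 and Tagln3, a relative of transgelin with 89 reads in 2H-11 and 1 read in SVEC4-10 (adjusted p = 1.84e-07). Tagln3 reached the count filter through 2H-11 alone. The lower one was Phldb2, a protein of the cell cortex, at 48.8 ± 20.9 CPM in 2H-11 libraries, against 115 ± 12.99 CPM in SVEC4-10 (log2 fold change of -1.34, SE 0.26, adjusted p = 0.000433).

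The genes whose log2 CPM over the 6 libraries ran most like that of Cd276 were Szrd1, Rom1 and the cell-cycle inhibitor gene Cdkn1a, with Pearson's r of 0.999, 0.999 and 0.998. Those most like Nectin2 were Ift43, Gab2 and Cirbp, with r of 0.994, 0.994 and 0.993. These values are descriptions over 6 libraries that fall into 2 lines, and 893 and 651 of 9903 genes exceeded 0.9 with Cd276 and Nectin2.

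Of further ligands, picked after their values were seen, Tnfsf18 (GITR ligand) had no count in 2H-11 and 9, 4 and 28 counts in SVEC4-10 replicates 1 to 3, which is at least 8.29-fold lower in 2H-11 (5.38, 6.06 and 5.13 without 2H-11 replicate 1, 2 or 3). H60b, a ligand of the natural killer cell receptor NKG2D, had 1 read in 2H-11, against 66 reads in SVEC4-10, and was called lower (ratio of SVEC4-10 to 2H-11 40.9, 95% exact counting interval 7.09 to 1639, adjusted p = 2.81e-05). H60b reached the count filter through SVEC4-10 alone. Its read in 2H-11 was in replicate 3, without which H60b was at least 7.84-fold lower. Raet1e, another NKG2D ligand, averaged 40.3 ± 5.55 CPM in 2H-11 libraries, against 81.8 ± 10.4 CPM in SVEC4-10 (adjusted p = 0.000180), while Ulbp1 did not pass the test (adjusted p = 0.773).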
